A study of Camelus dromedarius with 4 samples.

Results

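The granins are acidic proteins that are packed with peptide hormones into the dense-core vesicles of neurons and endocrine cells. Several of them are cleaved into peptides of their own inside the vesicle, others help to form the vesicle, sort its cargo or act on the convertases that cut the prohormones. In the supraoptic nucleus (SON), magnocellular neurons package vasopressin and oxytocin in such vesicles and carry them along their axons to the posterior pituitary. The 7 granin genes were CHGA, CHGB, SCG2, SCG3, SCG5, VGF and PCSK1N, found by gene symbol in the deposited table of season means. All 7 had a mean in both seasons, out of 16049 symbols with a season mean, and all 7 reached a mean of 10 in a season, as did 13808 symbols in all.

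The samples were SON tissue of adult male dromedary camels of the Tergui breed, age-matched and with access to water, 2 libraries of winter animals and 2 of summer animals. The winter animals were slaughtered at El Oued and the summer animals at Ouargla, so season cannot be told apart from place and day of collection. The libraries of a season are described as coming from different camels, though the labels do not tie each library to an animal, and p-values rest on the spread between these libraries. On gene models, which carry no names, the libraries held 4379162 to 6902037 counted reads. Granins were therefore read from the named table, which gives 1 value per symbol and season: the mean of read counts after division by the DESeq size factor of each library, called the normalised mean here. Gene lengths were not given, so a higher normalised mean of one gene than of another is not read as a higher level. The vasopressin precursor gene AVP (listed as putative AVP) had a normalised mean of 2560 in winter and 11822 in summer, and the oxytocin gene OXT 621 and 592, so both defining cargoes of magnocellular neurons were present in both seasons. In bulk tissue, fewer cells of a type and less RNA per cell cannot be told apart.

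Of the 7 granins, 5 had a higher mean in winter and 2 in summer. The share of all tested symbols with a higher winter mean was 46.2%. SCG2 was the granin with the widest gap, 2.16-fold higher in winter. CHGB and PCSK1N were 1.62- and 1.56-fold higher in winter, CHGA was just short of 1.5-fold higher, VGF was 1.26-fold higher, and SCG3 and SCG5 were 1.09- and 1.13-fold higher in summer. SCG2 was the only granin past a 2-fold difference, a size reached in favour of winter by 2.72% of all tested symbols, and SCG2, CHGB and PCSK1N were past 1.5-fold in favour of winter, as were 10.1% of all tested symbols. Among the 7778 symbols whose mean reached 100 in either season, a range that holds every granin except SCG5, 48.7% were higher in winter, 7.52% were more than 1.5-fold and 1.2% more than 2-fold higher in winter. The median log2 ratio of winter over summer was 0.58 for the granins and -0.036 for all tested symbols. None of the 7 differences had an adjusted p under 0.05 in a test between libraries, and only SCG2 had an unadjusted one in some tests with all libraries, as described further on. These values are therefore differences of means and not shown changes.

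**Figure D1:**
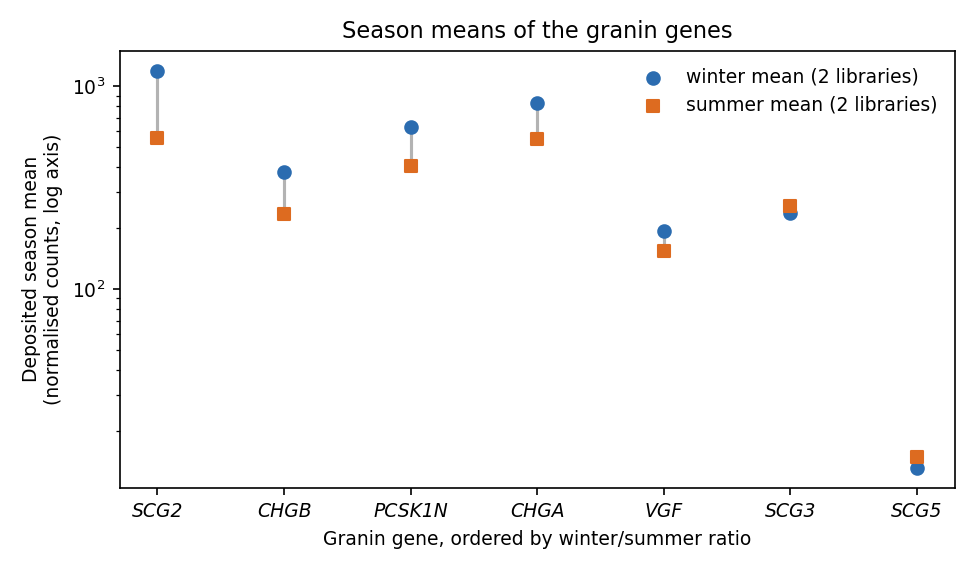
Normalised season means of the 7 granins, on a log scale, with winter and summer as separate points for each gene. SCG2 lies furthest apart, at 1195 in winter and 554 in summer, while the points of SCG3 and SCG5 lie close together with summer slightly higher. Each point is the authors' mean over 2 libraries and has no error bar.

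The season means gave back the reads of single libraries. Each normalised mean adds up whole numbers of reads from 2 libraries, with a fixed worth per read that differs between the libraries. The means of 100% of the symbols were such sums. Many pairs of whole numbers can give a high mean (3922 for AVP in summer), so this share says little about the abundant granins. Low means, 237 in winter and 167 in summer, are more telling. Of these 100% were such sums, against 0% when the means were moved. Where a single pair of whole numbers gives the mean, the reads of both libraries are known, and where several pairs do, the granin has several possible values per library and all of them are given. The libraries cannot be matched to replicate numbers with certainty, so they are called A and B within a season, A being the one with the larger size factor (1.33 and 0.946 in winter, 0.922 and 0.877 in summer). SCG5 had 1 solution in each season. CHGB, SCG3 and VGF had 1 solution in summer and 2 in winter. CHGA and PCSK1N had 4 in winter and 2 in summer, and SCG2 had 61 in winter and 2 in summer.

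**Figure D2:**
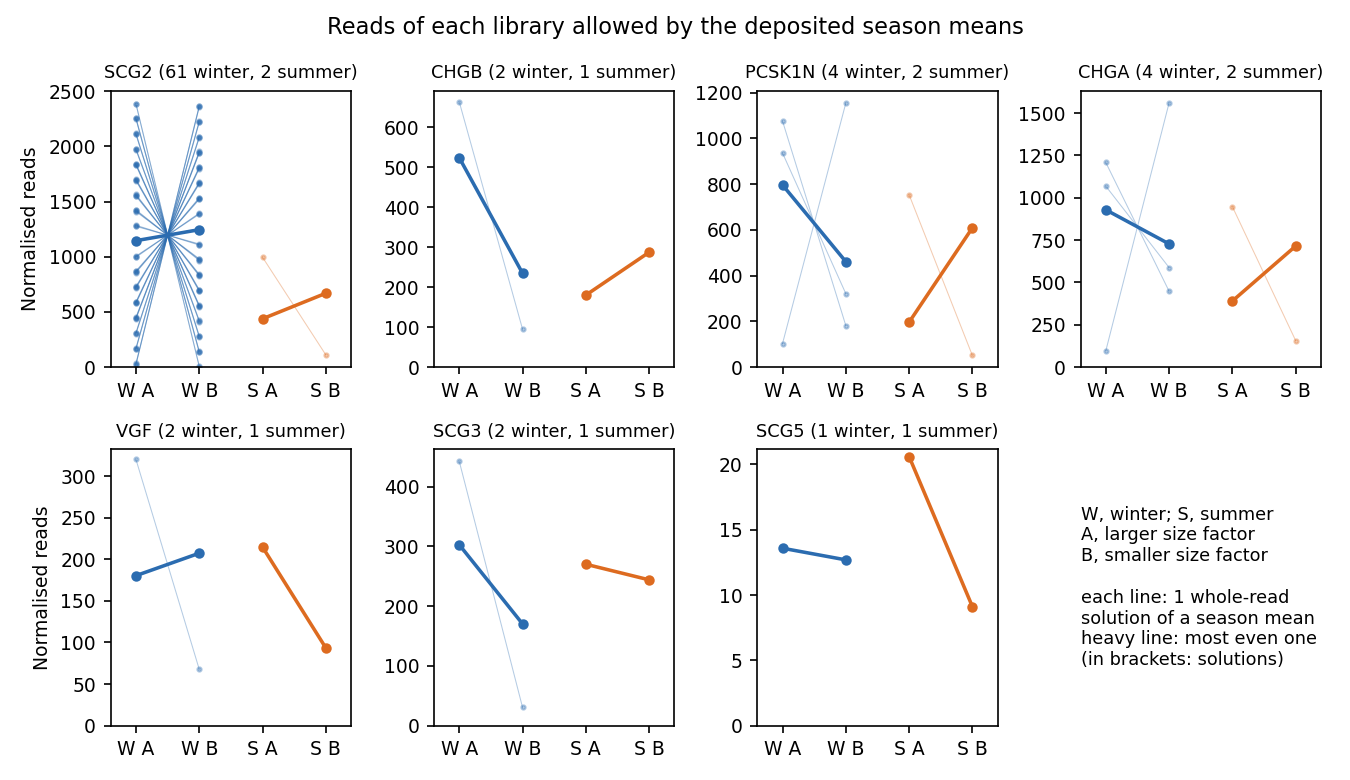
Normalised reads of single libraries A and B for each granin, as recovered from the season means, with 1 line per possible pair of whole numbers, winter and summer in separate colours. SCG2 has 61 winter lines, from nearly level to steep in both directions, while the single SCG5 pairs are 13.6 and 12.7 for winter, 20.6 and 9.12 for summer.

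Among the granins that are themselves cut into peptides, SCG2 encodes secretogranin II, the precursor of secretoneurin. Its normalised mean was 1195 in winter and 554 in summer (log2 ratio 1.11), which placed it at percentile 98.1 of the ratios of all tested symbols. In summer, library A held 404 reads and library B 587 (438 and 669 normalised), or else 918 and 98 (995 and 112 normalised). The most even winter pair was 1518 and 1177 reads, or 1145 and 1245 normalised, and 21 of the 61 winter pairs lay within 2-fold between libraries. Across all 122 combinations of a winter and a summer pair, the winter libraries were both higher than either summer library in 37, and the seasons overlapped in the other 85. The winter libraries were above both summer libraries in 29 of the 61 combinations with the more even summer pair and in 8 of the 61 with the uneven one. Whether the SCG2 libraries overlapped between seasons is therefore not known. Of 7653 symbols with 1 solution in each season, 13.3% had both winter libraries above both summer libraries. When summer library A or summer library B was left out, winter stayed higher for SCG2 in all 122 combinations (log2 0.84 to 3.42 and 0.26 to 1.45), and when a winter library was left out, it was higher in 96 of 122 (log2 -7.03 to 2.10 without winter library A and -4.56 to 2.11 without winter library B).

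CHGA encodes chromogranin A, a calcium-binding protein of the vesicle core and the precursor of catestatin. Its mean was 828 in winter and 553 in summer (log2 ratio 0.58), just short of 1.5-fold. The possible winter pairs for libraries A and B were 96.6 and 1560, 929 and 728, 1068 and 588, or 1208 and 448, and the possible summer pairs 390 and 715, or 948 and 157. In 1 of the 8 combinations, the most even one, the lower winter library exceeded the higher summer library, and the seasons overlapped in the other 7. With a library left out, the log2 ratio of CHGA ranged from -2.52 to 2.40 over all combinations, and without summer library B winter was higher in 4 of 8.

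CHGB encodes chromogranin B, another core protein of the vesicle. Its mean was 379 in winter and 234 in summer (log2 ratio 0.70). The summer libraries held 166 and 252 reads, 180 and 287 normalised. In winter, library A was the higher one in both possible pairs, 524 against 235 or 663 against 95.2. The winter B library thus lay below the higher summer library under either pair, and the seasons overlapped. Without winter library A the log2 ratio was 0.0071 or -1.30, so the higher winter mean of CHGB rested on that library.

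VGF encodes a neuropeptide precursor that is induced by nerve growth factor. Its mean was 194 in winter and 154 in summer (log2 ratio 0.33). Summer library A held 198 reads and library B 82, or 215 and 93.5 normalised, a 2.30-fold gap within the season. The possible winter pairs were 180 and 207, or 320 and 67.7. The gap between the summer libraries was wider than the 1.26-fold gap between the seasons, and the log2 ratio of the season means was 1.05 without summer library A and -0.15 without summer library B.

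PCSK1N encodes proSAAS, which is cut into small peptides and inhibits the prohormone convertase encoded by PCSK1. Its mean was 629 in winter and 402 in summer (log2 ratio 0.64). The summer libraries A and B were at 196 and 609, or at 754 and 51.3, so they differed widely under either pair. The possible winter pairs were 103 and 1154, 796 and 461, 936 and 322, or 1075 and 182. The seasons overlapped in all 8 combinations. With a library left out, the log2 ratio of PCSK1N ranged from -1.96 to 3.62, and winter was higher in 4 of 8 combinations without winter library A and in 4 of 8 without summer library B.

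SCG3 and SCG5 act on cargo and enzymes more than as sources of peptides. SCG3 encodes secretogranin III, which binds chromogranin A and the cholesterol-rich vesicle membrane. Its mean was 236 in winter and 257 in summer (log2 ratio -0.12). The summer libraries were close to each other, at 270 and 244, while the winter libraries were at 303 and 170, or at 442 and 30.7. Winter library A was above both summer libraries and winter library B below both, under either pair. Without winter library A the log2 ratio was -0.59 or -3.07, and without winter library B it was 0.24 or 0.78, so its direction depended on the winter library used.

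SCG5 encodes a chaperone of the convertase encoded by PCSK2 and was the granin with the fewest reads. The winter libraries held 18 and 12 reads and the summer libraries 19 and 8, which after normalisation came to 13.6 and 12.7 for winter and 20.6 and 9.12 for summer. Both winter values lay between the summer values, which differed 2.26-fold. The season means were 13.1 and 14.9 (log2 ratio -0.18), and the exact Clopper-Pearson interval of the log2 ratio at 95%, which covers counting error only, ran from -0.98 to 0.62. The log2 ratio was 0.53 without summer library A and -0.65 without summer library B.

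**Figure D3:**
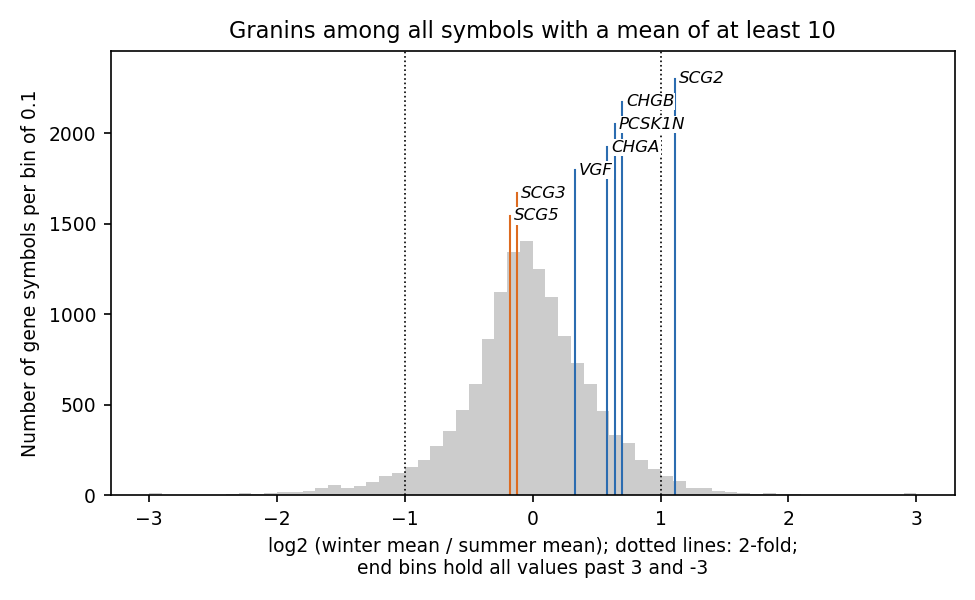
Histogram of the log2 ratio of the winter over the summer mean for all 13808 tested symbols (grey, bins of 0.1), with a vertical line for each granin, winter-higher granins in blue and summer-higher ones in orange. SCG2 at 1.11 is the only granin beyond the dotted 2-fold lines, and SCG3 and SCG5 lie in the middle of the distribution, at percentiles 41.5 and 35.9.

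Winter and summer reads as recovered were compared by the quasi-likelihood test of edgeR over 7659 symbols. All 7 granins entered each fit together. Their pairs changed from fit to fit until each combination of every granin had been used, 122 for SCG2. The p of a granin thus also depends on the pairs that the other granins had in that fit, and not every joint choice was fitted. With the filter on low means, none of the 7 granins had an adjusted or an unadjusted p under 0.05 in any combination fitted, beside 1.98% of all symbols at an unadjusted p under 0.05 and 0 at an adjusted one. For SCG2 the log2 fold change was 1.11, with a standard error of 0.573 for the most even pairs, and the edgeR p ran from 0.0838 to 0.570 and the adjusted p from 0.982 to 0.986. CHGB had a log2 fold change of 0.70 to 0.71 (standard error 0.529), with an edgeR p of 0.223 to 0.413. For CHGA the edgeR p was 0.361 to 0.667, for PCSK1N 0.357 to 0.642, for VGF 0.490 to 0.647, for SCG3 0.793 to 0.911 and for SCG5 0.826. Without the filter, the lowest edgeR p of SCG2 over the 4 combinations fitted was 0.0107 (adjusted p 0.984). By other tools its lowest unadjusted p over the same 4 combinations was 0.0147 by edgeR's exact test (adjusted p 1) and 3.561e-05 by DESeq2 (adjusted p 0.136). Those tools called 1 of 7659 symbols each at an adjusted p of 0.05, and 124 and 66 at an unadjusted p under 0.05. No symbol with 1 solution had a mean as high as SCG2, CHGA, PCSK1N or CHGB, so the spread assumed for these 4 granins was extrapolated from less abundant genes.

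How the libraries of a season differed bears on each granin. The spread was read over symbols with 1 solution in each season and a mean of at least 10 in the season concerned. These were 7343 symbols in summer and 7101 in winter. In summer the median such symbol differed 1.56-fold between the libraries and about 33% differed over 2-fold. In winter these values were 1.35-fold and 14.7%. Among granins with 1 summer solution, SCG3, SCG5 and VGF were higher in summer library A and CHGB in library B. Summer library A was the higher one for 38.6% of the 7343 symbols. In winter, CHGB and SCG3 were higher in library A under every possible pair, and library A was the higher one for 54.1% of the 7101 symbols. In the same summer libraries, genes with 1 summer solution and a summer mean of at least 10 were counted by list. Library B was higher for 5 of 5 neuron markers and 10 of 10 vesicle membrane genes. Library A was higher for 7 of 13 genes of vesicle formation and 6 of 13 peptide precursors. It was higher for 3 of 18 genes of release and 1 of 5 processing enzymes. Of the 4 granins with 1 summer solution, 3 were higher in library A. Counted likewise in winter, library A was higher for 10 of 11 genes of release, 16 of 20 peptide precursors and 5 of 7 vesicle membrane genes. It was also the higher one for 3 of 3 genes of vesicle formation, 2 of 3 processing enzymes and 1 of 1 neuron marker. The higher summer library is not known for SCG2, CHGA and PCSK1N, and it was library B in their most even pairs.

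The enzymes that cut and modify granins and peptide hormones were measured for 9 of 9 genes. Of these, 6 had a higher winter mean and 3 a higher summer mean, and the median log2 ratio was 0.075. Single-library reads of both seasons were known for 3 of them, PCSK1, PCSK5 and QPCT, and 0 of these 3 had an adjusted or an unadjusted p under 0.05 in edgeR's quasi-likelihood test; the other 6 were not tested. PCSK1, the convertase that proSAAS inhibits, had a mean of 32.9 in winter and 69.1 in summer (log2 ratio -1.07). Its winter libraries were at 41.5 and 24.3 and its summer libraries at 82.4 and 55.9, without overlap and with summer higher (edgeR p 0.0619, adjusted p 0.984). Both summer libraries were above both winter libraries for 17.2% of the 7653 symbols with 1 solution in each season and a mean of at least 10. PCSK1 and its inhibitor gene PCSK1N therefore had season means that differed in opposite directions, with no p under 0.05 for either. PCSK2, the convertase that the SCG5 product assists, was at 390 in winter and 365 in summer. The means of CPE, which trims basic residues after cleavage, were 625 and 563, and those of PAM, which amidates peptides, 557 and 529. Among the others, QPCT (96.8 in winter and 57.1 in summer) and FURIN (127 and 90.7) had higher winter means, PRCP was at 532 and 530, and PCSK5 (94.2 and 142) and CPD (595 and 635) had higher summer means.

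In the membrane of the dense-core vesicle, 9 of 11 genes had a higher winter mean and the median log2 ratio was 0.39. Past 2-fold were DBH, which makes noradrenaline inside vesicles (18.7 in winter and 5.02 in summer), and the vesicle glycoprotein gene SV2A (366 and 181). Among genes of vesicle formation 10 of 15 were higher in winter (median 0.15) and none was past 2-fold. Among genes of docking and release 14 of 21 were higher in winter (median 0.27). The 3 tested proteins outside the classical family that resemble granins were NUCB1 (log2 ratio 0.39), GNAS (0.31) and NUCB2 (-0.55). Across the lists of vesicle membrane, formation and release, the enzymes and the peptide precursors, 11 of 79 tested genes were more than 2-fold apart between the seasons. The share over all tested symbols was 7.26%. Of these 11, 7 were among the 23 tested peptide precursors, a list chosen with earlier results of these data known. The others were 2 of 11 vesicle membrane genes, 1 of 21 release genes and 1 of 9 enzymes. The granin median of 0.58 was above the median of each of these lists, with no test of that difference.

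Of 46 peptide precursors that travel with granins, 33 had season means and 23 were tested. Of these 15 had a higher winter mean, 5 past 2-fold, and 8 a higher summer mean, 2 past 2-fold (4.53% of all tested symbols were more than 2-fold higher in summer), and the median log2 ratio was 0.40. AVP had a log2 ratio of -2.21, and PDYN, the dynorphin precursor co-packaged with vasopressin, was at 35.9 in winter and 127 in summer. The winter-higher precursors past 2-fold that had the largest ratios were TAC4 (19.1 and 2.77), PMCH (77.0 and 16.5) and CBLN1 (69.3 and 20.3). PMCH was at 149 and 5.29 in winter libraries A and B and at 23.9 and 9.12 in the summer ones. Winter library B of PMCH thus lay below both summer libraries, and its higher winter mean rested on library A. For PDYN the winter libraries were at 63.4 and 8.46 and the summer libraries at 128 and 127. By the quasi-likelihood test 0 of the 20 precursors with 1 solution passed an adjusted p of 0.05. An unadjusted p under 0.05 was found for 4, 3 higher in winter and 1 in summer, beside 1.98% of all 7659 symbols. Because the list was chosen with earlier results of these data known, this count is a description only. The means of all 7 granins thus differed by less than those of AVP and PDYN, and the 5 winter-higher ones in the opposite direction.

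**Figure D4:**
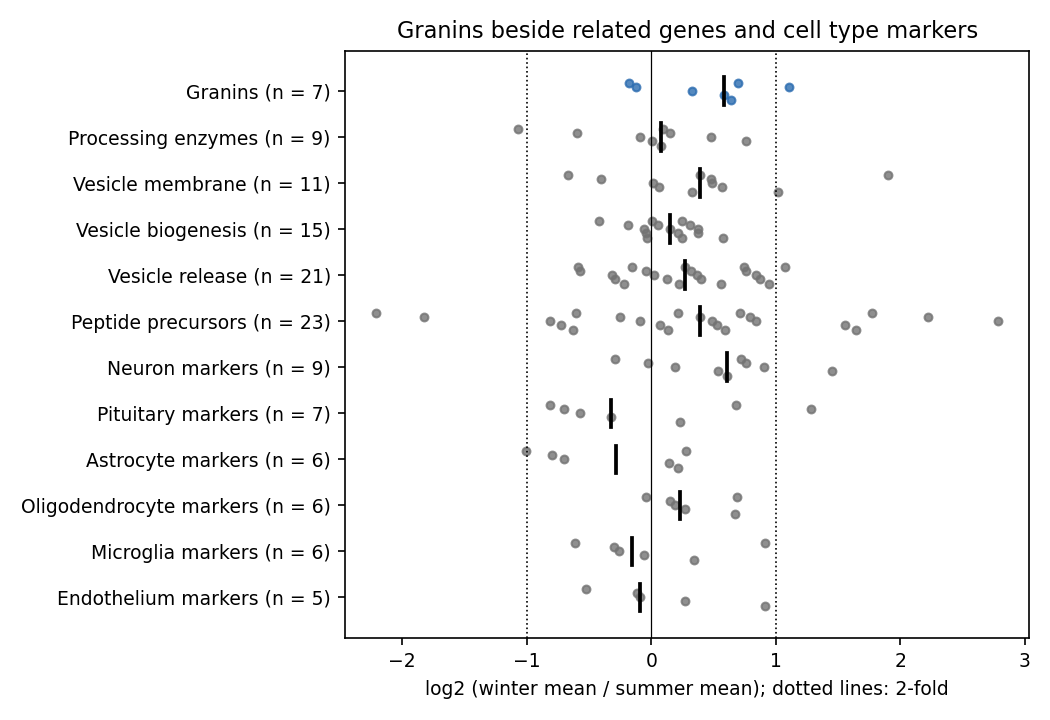
Log2 ratio of the winter over the summer mean for each tested gene of the granins, of the other dense-core vesicle lists and of the cell type markers, 1 point per gene with a bar at the list median. The granin median of 0.58 lies beside the neuron marker median of 0.61, and the peptide precursors spread furthest, from AVP at -2.21 to TAC4 at 2.79.

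Most neuron markers also had a higher mean in winter. Of 9 with a mean, 7 were higher in winter, MAP2 and UCHL1 were higher in summer (log2 ratios -0.023 and -0.29), the median log2 ratio was 0.61, and the neurofilament gene NEFM was at 531 in winter and 194 in summer. The only neuron marker with known single-library reads in both seasons, RBFOX3, had an edgeR p of 0.162 (adjusted p 0.984). The normalised means of the neuron markers summed to 15024 in winter and 13258 in summer, of which MAP2 made up 6438 and 6540. Those of the granins summed to 3475 in winter and 2168 in summer. Such sums are weighted to the genes with the most reads, and the median log2 ratios of the 2 lists were 0.61 and 0.58. The share of neurons in the tissue and its part in the granin values was not tested. Pituitary cells also hold granins. Of 7 tested pituitary markers 3 were higher in winter, and their normalised means summed to 2264 in winter and 2240 in summer. Among them GH1 was at 1132 and 464 and POMC at 738 and 1294. The part of pituitary cells in the granin values was not tested. Astrocyte markers were higher in winter for 3 of 6 (summed 15497 and 26109), with most of both sums from GFAP alone (14423 and 25074). Oligodendrocyte markers were higher in winter for 5 of 6 (37187 and 33482) and microglia markers for 2 of 6 (4094 and 5560). For endothelial markers it was 2 of 5 (843 and 800) and for ependymal markers 1 of 2 (94.4 and 91.4).

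For each granin the symbols with the most similar pair of season means were found among 12945 symbols, by Euclidean distance of the log2 means, a likeness of normalised means that rests on 2 values and takes no account of gene length. For SCG2 they were TENC1 at a distance of 0.078, SEMA4D at 0.125 and SRRM2 at 0.251, and for CHGA they were RPTOR, IL16 and SIRPA. CHGB lay nearest to CDK18, VDAC1 and ARVCF, and PCSK1N to EHMT1, FAM102A and MYH6. VGF lay nearest to CRTAC1, MAP2K3 and PJA1, SCG3 to TTL, TOX4 and AKTIP, and SCG5 to PDE6B, ZACN and TYMS. No granin was among the 3 nearest symbols of another granin.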

How the data were processed

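Per the labels, RNA of the SON was sequenced in 2 winter and 2 summer libraries (stranded, rRNA-depleted). The authors aligned reads with TopHat to their own dromedary assembly and deposited raw read counts per gene model from HTSeq, used here for depth only: the 64989 models carry no names. Of the tallied alignments, 46.4% to 55.2% lay outside gene models and 20.2% to 26.9% were not unique, and both stayed out of the totals. The share counted on gene models was 20.7% to 27.8%. The authors' deposited table gives per symbol a signal (the mean of counts over DESeq size factors per season), and a fold ratio and unadjusted p-value of edgeR, winter over summer, which were not used.

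The members and lists were chosen with earlier results of these data known. Log2 ratios used the deposited means without pseudocount, and a symbol was tested where either season's mean reached 10; 4 duplicated rows were dropped. AVP, CCDC186 and EIPR1 were matched by other names in the table. Whole reads were recovered from the means and tested with edgeR 4.0.16 in R 4.3.3 (estimateDisp, glmQLFit with legacy FALSE, glmQLFTest, recovered size factors), Benjamini-Hochberg adjusted over all symbols with 1 solution and the member. Alternatives were TMM and RLE factors, the exact test, DESeq2 1.42.0, no filter, other pseudocounts, scalings and thresholds, and leaving out a library. A background of means of at least 100 and the most even pairs were added after the data were seen. Named genes were the members, AVP and OXT, every processing enzyme, up to 4 genes past 2-fold per list, and the 3 nearest symbols per member; other named genes were chosen after their values were seen. On simulated data of 6000 means, 4564 had a single solution, and all of these were true. The simulated means were built from the recovered size factors, so the true pair had to be among the solutions. The size factors themselves were not tested in this way. In 7652 simulated symbols, 81.5% of 200 genes changed 4-fold had an unadjusted edgeR p under 0.05, and 13% an adjusted one. Precision is limited by the number of libraries, 2 a season. Protein sequences were not analysed here. The values of 1 gene of the lists are not reported here.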

Additional observations from a re-analysis of the deposited data

How the results depend on the processing

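Pseudocounts of 1 and 10, median centring and division by the season sum did not turn the log2 ratio of any of the 7 granins, and could not have. An equal pseudocount on both means never turns a ratio. The median log2 ratio of all tested symbols (-0.036) and the log2 ratio of the season sums (0.027) were smaller in size than the smallest granin ratio (SCG3, -0.12). With a fold threshold of 1.5 the granins past it rose from 1 to 3, and with a threshold of 3 there were 0. Of the other dense-core vesicle genes, 11 of 79 were past 2-fold, 28 past 1.5-fold and 7 past 3-fold. Over all tested symbols these shares were 7.26%, 22.3% and 1.85%. With a background of means of at least 100, 1.2% of 7778 symbols were past 2-fold in favour of winter. Leaving out 1 library at a time, at the most even pairs, turned the direction of 3 granins: the log2 fold change ranged from -0.59 to 0.24 for SCG3 (without winter library A and without winter library B), from -0.64 to 0.52 for SCG5 (without summer library B and without summer library A) and from -0.15 to 1.05 for VGF (likewise). It ranged from 0.84 to 1.45 for SCG2, 0.21 to 1.09 for CHGA, 0.0077 to 1.16 for CHGB and 0.047 to 1.68 for PCSK1N. Over all possible pairs the direction also turned for these 4. In these fits the lone library is assumed to vary like the other season. Without summer library A, 217 of 7659 symbols passed an adjusted edgeR p of 0.05, and without summer library B 274, against 0 with all libraries, and no granin was among them in any pair fitted. The cause was not tested. No paired analysis was possible because the winter and summer animals were slaughtered on different days, so no animal gave libraries of both seasons. Depth limits SCG5 most, with 8 to 19 reads per library.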
